A study of Mus musculus with 6 samples.

Results

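The sterol genes analysed here were 26 genes of cholesterol synthesis and of its control by the SREBP transcription factors, measured by RNA sequencing in mouse corneal epithelial sheets. They were chosen by name, from the enzymes between acetyl-CoA and cholesterol and the proteins that control or carry sterols, and were found by Ensembl gene number among the 25006 genes of the count table. All 26 passed the filter on low counts, which left 12847 genes tested. The study set 3 wild type libraries against 3 libraries from animals labelled EphA2 null. The EphA2 protein is a cell surface receptor for ephrins. The labels name no strain, age, sex or allele, and they do not say whether the libraries of a group came from separate animals, so that p-values measure the spread between these libraries, which may be partly technical. In bulk tissue, fewer cells of a type and less RNA per cell cannot be told apart.

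Cells build cholesterol from acetyl-CoA in the mevalonate pathway, whose isoprenoid products also serve protein prenylation, dolichol and ubiquinone. Squalene is then closed into lanosterol, and a series of demethylations, reductions and double bond shifts turns lanosterol into cholesterol. The SREBP proteins are made as membrane proteins of the endoplasmic reticulum. When sterols are scarce, SCAP escorts them to the Golgi, where proteases release the part that enters the nucleus and activates genes of sterol and fatty acid synthesis. When sterols are plentiful, INSIG proteins hold SCAP in the endoplasmic reticulum. Stratified epithelia such as that of the cornea lack blood vessels and make membrane lipid while their cells are renewed.

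Total counts ran from 15308013 to 27586942 per library. Epha2 itself was measured at 298, 253 and 563 CPM (counts per 1000000, scaled with TMM factors throughout) in the wild type libraries and at 285, 652.5 and 578 CPM under the null label. It was thus not lower under the null label, and what part of the gene the allele changes is not given in the sources used here. The libraries separated instead by the number in their sample titles, whose meaning the labels do not give: wild type 1, wild type 2 and EphA2 null 1 carry lower numbers, and wild type 3, EphA2 null 2 and EphA2 null 3 carry higher ones. Wild type 1 and 2 share 1 title number, and EphA2 null 2 and 3 share another. The genes were therefore compared both for genotype (labelled null over wild type) and for title number range (higher over lower, with genotype as a term). For many single genes only 1 of these differences is given. Corneal epithelial markers were high in all libraries, among them Krt12, the cornea-specific keratin, at 13064 to 16025 CPM, and 5 of 11 of these markers were higher with higher title numbers and 0 were lower, in a comparison that called 24.6% of all tested genes higher and 20.1% lower (adjusted p under 0.05 in edgeR). Of 12 tested leukocyte markers 10 were lower and 1 was higher, and their summed level was 34.8 to 56.6 CPM in the lower and 14.8 to 20.9 CPM in the higher range. The stromal keratocyte markers Kera and Lum were at 0 in all libraries, and their list summed to 11.8 to 17.4 CPM, with 1 of 2 tested genes lower and 0 higher. Of 9 tested conjunctival and goblet cell markers 3 were lower, among them the goblet cell mucin gene Muc5ac (0.675 to 58.8 CPM), and 1, Muc4, was higher. Log2 fold changes were below 0 in 8 of the 9 and above 0 in 1, with a median of -0.63. Their list summed to 9349 to 12110 CPM in the lower and 11267 to 14003 CPM in the higher range. Muc4 made up much of that sum, at 4413 to 6158 CPM in the lower and 7961 to 8507 CPM in the higher range. Of 7 tested meibomian gland markers 1 was lower and 0 were higher, the list summed to 131 to 169 CPM, and Awat1 and Elovl3 were at 0 in all libraries. The part of these cell types in the differences below was not tested.

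The pathway was expressed in every library. Divided by the merged length of the gene's exons, Hmgcs1, the synthase that makes HMG-CoA from acetoacetyl-CoA, had the highest level at 304 ± 17.3 CPM per kb (SD, n = 6 libraries). Insig1, the sterol-dependent anchor of SCAP, followed at 132 ± 11.7 CPM per kb. Msmo1, Cyp51, Sqle and Sc5d, which all act after squalene has formed, came next at 98.8, 98.3, 92.6 and 83.8 CPM per kb. The lowest levels were those of the SREBP escort Scap at 6.59, the isopentenyl diphosphate isomerase Idi1 at 5.29 and the sterol reductase Tm7sf2 at 5.26 CPM per kb. In this order 20 of the 25 pairs of neighbours lay within 1 SD of each other. The steps down from Hmgcs1 to Insig1, from Insig1 to Msmo1, from Sc5d to Fdps, from Fdps to Nsdhl and from Dhcr7 to Ggps1 were the exceptions.

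**Figure D1:**
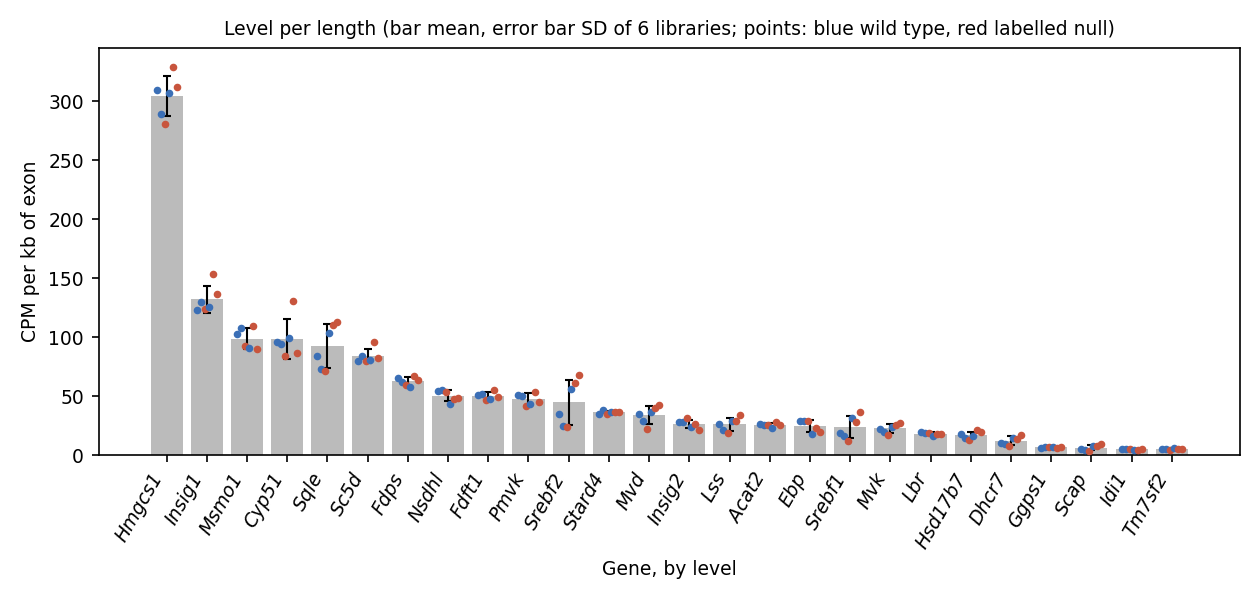
Mean level of each of the 26 genes in CPM per kb of exon, in order of level, with the SD of the 6 libraries as error bars and each library as a point (blue wild type, red labelled EphA2 null). Hmgcs1, at 304 CPM per kb, stands above Insig1 at 132 CPM per kb, and Srebf2 and Srebf1 have wide error bars for their level.

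Most of the genes varied little between libraries. The highest library exceeded the lowest by a median of 1.36-fold over the 26 genes and by less than 1.5-fold in 15 of them. Stard4, a carrier of cholesterol between membranes, was the steadiest at 1.09-fold, and Srebf1 the most variable at 3.01-fold. Hmgcs1 was measured at 1422, 1327 and 1410 CPM in wild type and at 1288, 1510 and 1431 CPM under the null label. Summed over all 26 genes, wild type libraries reached 6001, 5738 and 6202 CPM and libraries under the null label 5340, 6936 and 6543 CPM, so that EphA2 null 1 held the lowest and EphA2 null 2 the highest sum.

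The comparison of genotypes asks whether these genes differ between libraries labelled EphA2 null and wild type. Epha2 counts themselves were not lower under the null label. In edgeR's quasi-likelihood test 0 of the 26 genes were called, that is, had a p under 0.05 after Benjamini-Hochberg adjustment, where 0.00778% of all tested genes were (1 of 12847). DESeq2, which called 0.0272% of the 18389 genes with any count, and limma voom also called 0 of the 26. In edgeR 0 of them had an unadjusted p under 0.05, against 152 of all tested genes (1.18%). In DESeq2 0 did, against 0.892% of the 18389 genes. Log2 fold changes ran from -0.17 for Tm7sf2 to 0.39 for Srebf2, with 17 of 26 above 0 and a median of 0.05, beside 0.01 over all tested genes. In 0 of the 26 genes did the values of the 2 genotypes stand apart without overlap, against 3.73% of all tested genes. The precision differed between members: the 95% interval of Stard4 ran from -0.28 to 0.26 and that of Srebf2 from -0.61 to 1.40. When the model also held title number range, which called 0.00778% of all tested genes, the number of members called was again 0 and their median was -0.02. Tm7sf2 was then the 1 member with an unadjusted p under 0.05, as 3.87% of all tested genes had, at a log2 fold change of -0.26, and it did not pass the adjustment. The intervals of all 26 genes together spanned -0.61 to 0.36.

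Between the title number ranges 11 of the 26 genes were called, or 42.3%, beside 44.7% of all tested genes. Of these 8 were higher with higher title numbers, where 24.6% of all tested genes were, and 3 were lower, where 20.1% were. The share called among the sterol genes was thus near that of the whole table. DESeq2 called the same 11 genes, beside 29.7% of the 18389 genes with any count. That is a wider set than the 12847 genes tested in edgeR, so the shares are not alike. The median log2 fold change of the 26 was 0.09, beside -0.01 over all tested genes. In 12 of the 26 genes the 2 ranges did not overlap, against 59% of all tested genes; 8 were higher (30.1% of all) and 4 lower (28.8% of all). With libraries that share a title number summed, 9 members were called, 7 higher and 2 lower, beside 38.9% of all genes. Mvk (0.38, adjusted p = 0.060 in edgeR) and Nsdhl (-0.25, adjusted p = 0.087) lost their calls in that fit.

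**Figure D2:**
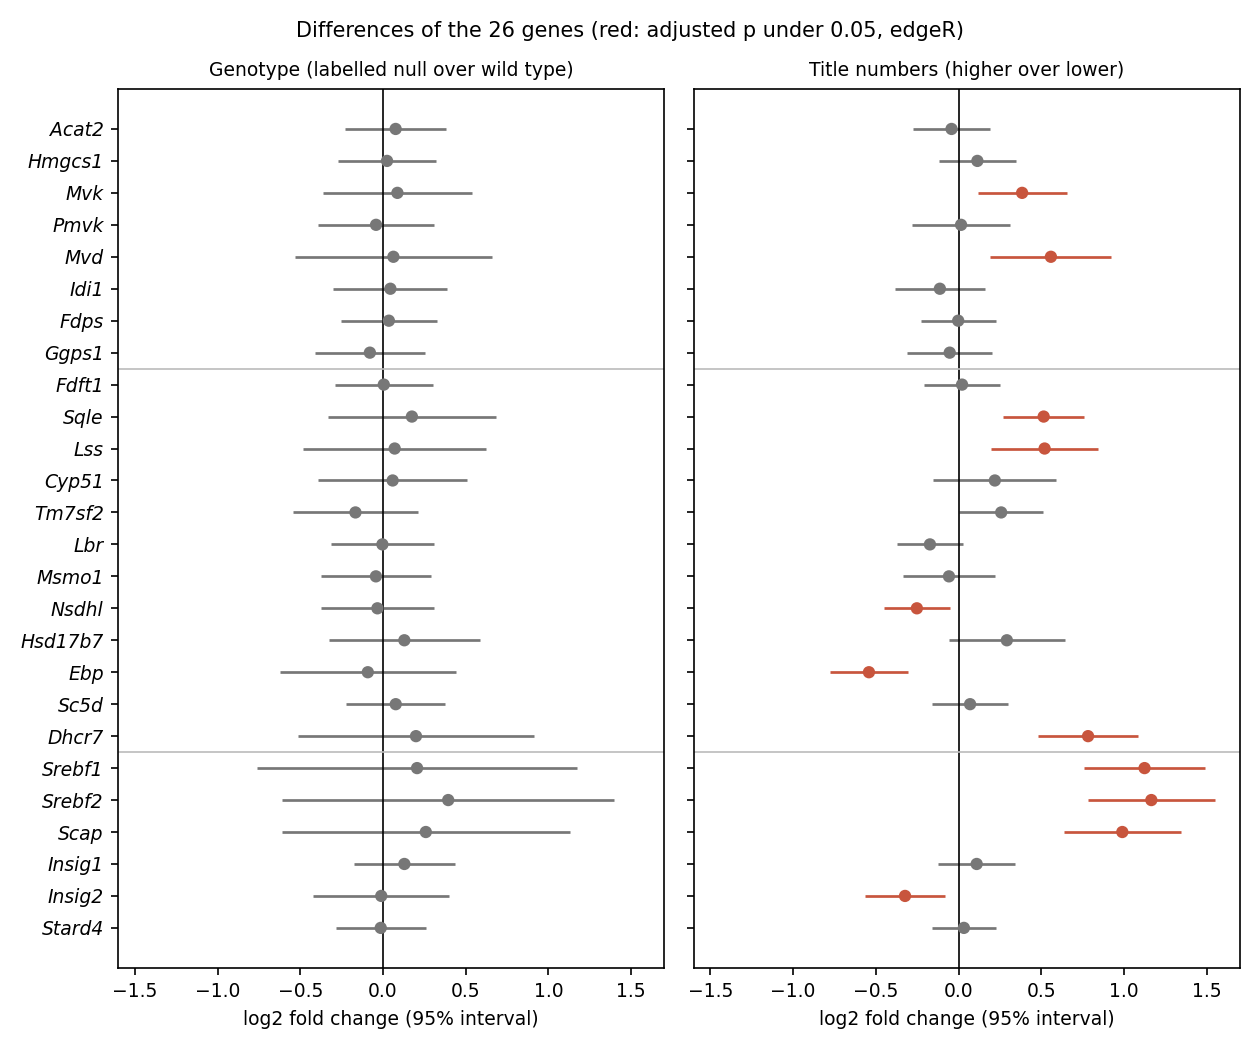
Log2 fold change of each gene with its 95% interval for genotype (left, labelled EphA2 null over wild type) and for title number range (right, higher over lower), with genes called at adjusted p under 0.05 in edgeR in red. All 26 intervals on the left include 0, and 11 genes on the right are red, 8 above 0 and 3 below.

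Srebf1 and Srebf2, the genes of the SREBP transcription factors, and Scap, that of their escort, showed the largest differences of the 26 between the ranges. This order is that of the fit without removal of GC content or transcript length. Srebf2, whose protein acts mainly on sterol genes, lies on chromosome 15 (82147181 to 82205379, plus strand, GRCm38). The libraries held 252 and 181 CPM for wild type 1 and 2, 171 CPM for EphA2 null 1, 402 CPM for wild type 3 and 440 and 486.5 CPM for EphA2 null 2 and 3. The 3 libraries with higher title numbers thus all lay above the other 3, whichever their genotype. It was 2.24-fold higher with higher title numbers (log2 fold change 1.17 ± 0.17 (SE), adjusted p = 0.0023 in edgeR). Between genotypes its log2 fold change was 0.39 ± 0.43, smaller than its SE.

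Srebf1 encodes the SREBP-1 forms, of which SREBP-1c is known for fatty acid synthesis, and lies on chromosome 11 (60199089 to 60222581, minus strand). Wild type 1 and 2 held 106 and 93.5 CPM and EphA2 null 1 held 68.6 CPM, against 178 CPM for wild type 3 and 160 and 206 CPM for EphA2 null 2 and 3. Again the ranges did not overlap and the genotypes did. The difference between ranges was 2.18-fold (log2 fold change 1.12 ± 0.16, adjusted p = 0.0023 in edgeR), and that between genotypes 0.21 ± 0.41 on the log2 scale. Scap (chromosome 9, 110333288 to 110384950, plus strand) was measured at 39.7 and 34.3 CPM in wild type 1 and 2, 27.2 CPM in EphA2 null 1, 59.96 CPM in wild type 3 and 60.7 and 72.2 CPM in EphA2 null 2 and 3. All libraries with higher title numbers exceeded the others, by 1.99-fold (log2 fold change 0.99 ± 0.15, adjusted p = 0.0027 in edgeR).

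**Figure D3:**
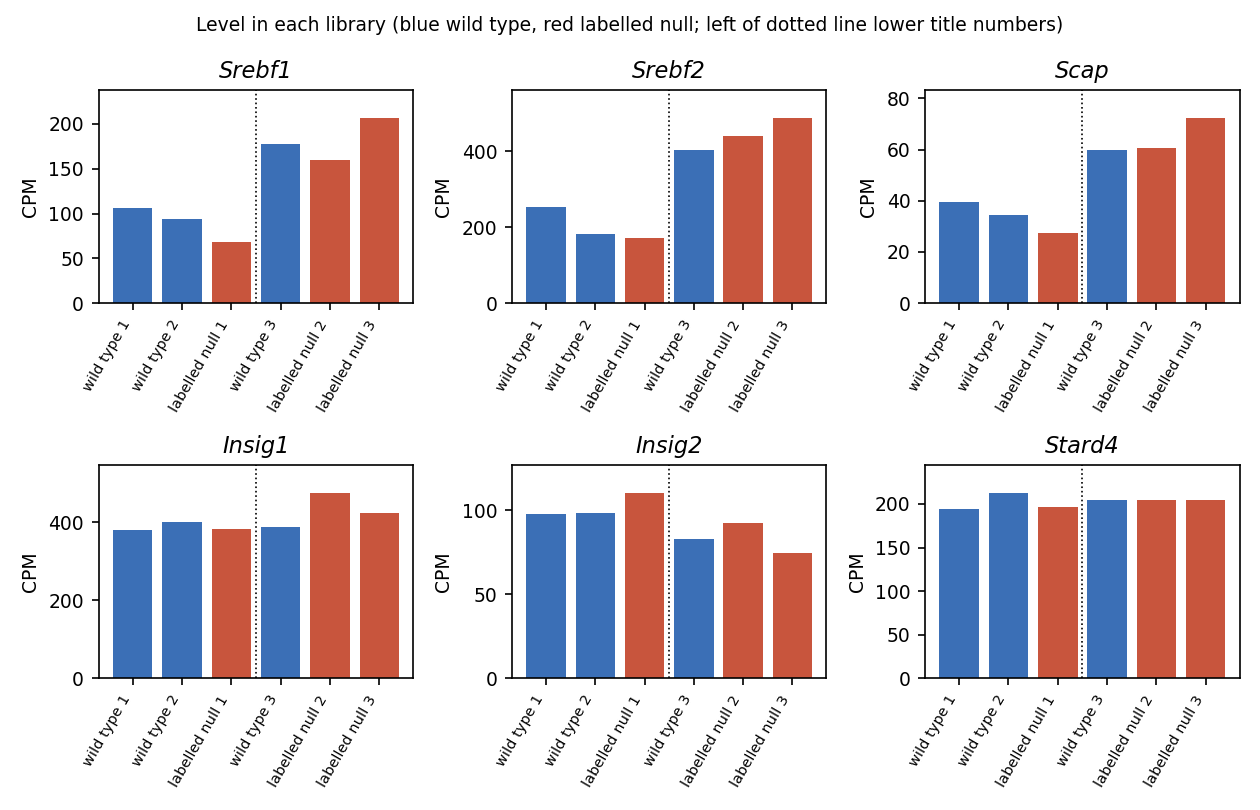
Level in CPM of the 6 genes of SREBP control and sterol transport in each library, wild type in blue and labelled EphA2 null in red, with libraries of lower title numbers left of the dotted line. Srebf1, Srebf2 and Scap are higher in all 3 libraries on the right, Insig2 is lower there, and Insig1 and Stard4 show no such step.

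Neither INSIG gene passed the test for a rise. Insig1, a direct target of SREBP in other tissues, was measured at 381, 402 and 388 CPM in wild type and at 383, 475 and 423 CPM under the null label. EphA2 null 2 was the highest of these and the other 5 libraries lay close together, and the log2 fold change between ranges was 0.11 ± 0.10 (95% interval -0.12 to 0.34), which did not pass the test. Insig2, the second anchor of SCAP, was lower with higher title numbers, at 82.7, 92.5 and 74.2 CPM in wild type 3, EphA2 null 2 and EphA2 null 3 against 97.8, 98.1 and 110 CPM in wild type 1, wild type 2 and EphA2 null 1. Its log2 fold change was -0.32 ± 0.11 (adjusted p = 0.037 in edgeR). The call held without EphA2 null 2 but was lost when any other library was left out (-0.25 without EphA2 null 1). It was also lost with the GC trend of each library removed (-0.22). Stard4 lay between 194 and 212 CPM in all 6 libraries, with a log2 fold change between ranges of 0.03 ± 0.08. Summed over these 6 genes of SREBP control and transport, the level was 956 to 1071 CPM in the lower and 1316 to 1467 CPM in the higher range. Of the 6 genes, 3 rose and 1 fell (66.7% called, beside 44.7% of all tested genes).

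Sequences before a RefSeq start of 6 of these genes are shown, which share a control circuit but not a pattern between libraries. Srebf2, Srebf1 and Scap rose with higher title numbers, Insig2 fell, and Insig1 and Hmgcs1 did not pass the test. Each stretch runs 5′ to 3′ on the strand of the gene, ends just before an annotated start and comes from RefSeq (GRCm38.p6). Capitals mark 3 motifs on either strand: CACNCCA, a core of the sterol regulatory element; CCAAT or its complement ATTGG, the motif of NF-Y; and GGGCGG or its complement CCGCCC, the motif of Sp1. Srebf1 has 3 RefSeq starts, Insig2 3 and Scap 2, and 1 of each is shown. The Srebf1 stretch lies within the gene, because the starts at 60220627 and 60222581 are upstream of it. Insig2 also has a start upstream of the stretch shown, at 121332589. The Srebf2 stretch is chr15:82147019-82147180 on the plus strand, that of Srebf1 chr11:60210472-60210721 on the minus strand, that of Scap chr9:110333038-110333287 on the plus strand, that of Insig1 chr5:28071162-28071362 on the plus strand, that of Insig2 chr1:121328025-121328274 on the minus strand and that of Hmgcs1 chr13:119690101-119690350 on the plus strand.
Srebf2: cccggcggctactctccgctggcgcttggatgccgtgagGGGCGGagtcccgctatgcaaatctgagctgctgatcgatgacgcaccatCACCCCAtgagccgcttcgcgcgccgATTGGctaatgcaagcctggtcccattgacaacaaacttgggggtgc
Srebf1: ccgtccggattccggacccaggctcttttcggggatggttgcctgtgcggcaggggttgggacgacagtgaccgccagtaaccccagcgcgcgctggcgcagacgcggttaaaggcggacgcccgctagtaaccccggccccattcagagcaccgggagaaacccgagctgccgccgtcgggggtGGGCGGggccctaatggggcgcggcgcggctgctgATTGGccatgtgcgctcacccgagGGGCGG
Scap: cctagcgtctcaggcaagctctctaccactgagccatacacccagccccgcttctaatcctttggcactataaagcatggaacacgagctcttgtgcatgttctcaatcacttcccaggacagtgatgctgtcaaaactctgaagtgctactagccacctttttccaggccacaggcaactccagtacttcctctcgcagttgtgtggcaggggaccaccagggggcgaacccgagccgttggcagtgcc
Insig1: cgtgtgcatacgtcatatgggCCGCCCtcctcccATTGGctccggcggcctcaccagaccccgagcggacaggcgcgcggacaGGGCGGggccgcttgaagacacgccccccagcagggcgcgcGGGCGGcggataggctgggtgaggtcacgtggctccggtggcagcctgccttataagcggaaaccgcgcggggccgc
Insig2: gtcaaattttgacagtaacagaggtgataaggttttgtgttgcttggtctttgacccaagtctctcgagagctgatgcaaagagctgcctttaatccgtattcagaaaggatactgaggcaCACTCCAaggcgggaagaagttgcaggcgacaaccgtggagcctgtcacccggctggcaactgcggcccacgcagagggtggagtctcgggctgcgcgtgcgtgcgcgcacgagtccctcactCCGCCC
Hmgcs1: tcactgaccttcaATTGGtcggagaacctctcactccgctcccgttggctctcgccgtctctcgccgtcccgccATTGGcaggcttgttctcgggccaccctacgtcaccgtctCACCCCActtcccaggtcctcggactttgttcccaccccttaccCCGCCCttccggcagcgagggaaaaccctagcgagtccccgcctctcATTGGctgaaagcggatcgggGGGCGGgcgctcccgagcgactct

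In these stretches the sterol element core occurs once in Srebf2, once in Hmgcs1 and once in Insig2, and the letters of the core are not in those shown for Srebf1, Scap and Insig1. Hmgcs1 holds 3 CCAAT motifs and 2 GC boxes beside it. RefSeq windows of 250 bases before to 50 bases after the start were found for 22 of the 26 genes, 30 windows in all. Fdps, Fdft1, Sqle and Stard4 were not matched. The core CACNCCA was in 23.3% of these windows, beside 18.4% of all 32851 windows of the table, and was found for 6 genes: Acat2, Hmgcs1, Insig1 (past the end of the stretch shown), Insig2, Msmo1 and Srebf2. CCAAT was in 70.0% of the windows, beside 37.4% of all, and GGGCGG in 80.0%, beside 35.7% of all. The genes with the core included 1 that rose with title number range, 1 that fell and 4 that did not pass the test. These are descriptions of letters in a window, not of binding.

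Of the 8 mevalonate and isoprenoid enzymes 2 were higher with higher title numbers (25.0% called, beside 44.7% of all tested genes), 0 were lower, and 0 were called between genotypes. Mvk, mevalonate kinase, was measured at 60.2, 53.2 and 64.1 CPM in wild type and at 47.1, 69.3 and 72.3 CPM under the null label. Its ranges did not overlap, with a log2 fold change of 0.38 ± 0.12 (adjusted p = 0.029 in edgeR). Mvd, which decarboxylates mevalonate diphosphate, showed the same order at 64.4, 53.9 and 68.7 CPM in wild type and 41.3, 74.2 and 79.9 CPM under the null label, with EphA2 null 1 the lowest (0.56 ± 0.16, adjusted p = 0.022 in edgeR). Neither call held without EphA2 null 1 (0.17 for Mvk and 0.21 for Mvd), without wild type 2 (0.35 and 0.52) or with the GC trend of each library removed (0.048 and 0.13). Mvk also lost its call with libraries summed by title number, without EphA2 null 3 and with upper-quartile scaling. The other 6 enzymes had log2 fold changes between ranges of -0.11 (Idi1) to 0.11 (Hmgcs1) and did not pass the test. They were Acat2, the acetoacetyl-CoA thiolase, Hmgcs1, the phosphomevalonate kinase Pmvk, Idi1, the farnesyl diphosphate synthase Fdps and the geranylgeranyl diphosphate synthase Ggps1. For Fdps the value was 0.00, with a 95% interval of -0.23 to 0.22. With the GC trend of each library removed, these 6 values ran from -0.34 (Pmvk) to 0.33 (Hmgcs1). Ggps1 was then at 0.27 and Idi1 at 0.15, both turned in sign. None of the 6 was called in that fit, though Hmgcs1 (adjusted p = 0.052 in edgeR), Ggps1 (0.052) and Pmvk (0.055) came near.

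Acat2 and Ggps1 had the smallest p between genotypes in this group, and neither passed the test. Acat2 was measured at 67.5, 65.2 and 58.8 CPM in wild type and at 64.7, 72.4 and 65.1 CPM under the null label, a log2 fold change of 0.08 ± 0.13. Ggps1 was measured at 30.8, 35.0 and 35.0 CPM in wild type and 34.7, 29.2 and 31.5 CPM under the null label, a log2 fold change of -0.08 ± 0.14. The genotypes overlapped in both.

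Of the 12 enzymes from squalene to cholesterol, 3 rose with higher title numbers and 2 fell (41.7% called, beside 44.7% of all tested genes). Sqle, squalene epoxidase, an oxygen-dependent early step, was measured at 468, 407 and 573 CPM in wild type and at 397, 610 and 627 CPM under the null label (log2 fold change 0.51 ± 0.11, adjusted p = 0.0067 in edgeR). Lss, which closes the epoxide into lanosterol, was measured at 285, 232 and 318 CPM in wild type and 202, 309 and 365 CPM under the null label (0.52 ± 0.14, adjusted p = 0.018). Dhcr7, the last reductase on the way to cholesterol, was measured at 59.9, 55.2 and 85.2 CPM in wild type and 46.0, 82.8 and 101 CPM under the null label, a 1.72-fold difference between ranges (0.78 ± 0.13, adjusted p = 0.0033 in edgeR). In all of these the ranges did not overlap and EphA2 null 1 was the lowest library. Without it none of the 3 was called (Sqle 0.39, Lss 0.29, Dhcr7 0.56), and with GC content and length removed Lss was at 0.23. Lss also lost its call without wild type 2 (0.46).

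Ebp and Nsdhl went the other way. Ebp, the isomerase that shifts a double bond in the sterol ring, was measured at 67.2, 67.6 and 42.3 CPM in wild type and at 66.6, 53.3 and 46.5 CPM under the null label (log2 fold change -0.54 ± 0.10, adjusted p = 0.0050 in edgeR). Among the fits run, Ebp lost its call only without wild type 3 (-0.43). Nsdhl, a dehydrogenase in the removal of methyl groups from the ring, was measured at 156, 159 and 123 CPM in wild type and 153, 136 and 139 CPM under the null label (-0.25 ± 0.09, adjusted p = 0.044 in edgeR). The call of Nsdhl was lost with libraries summed by title number and with the GC trend of each library removed (-0.14). It held without EphA2 null 3 but was lost when any other library was left out (-0.35 without EphA2 null 1). Both genes lie on the X chromosome, the only members that do. Both were lower in all 3 libraries with higher title numbers, as were 28.8% of all tested genes. A link with the chromosome was not tested. Lbr, a sterol reductase of the nuclear envelope, was also lower in all 3 of these libraries but did not pass the test (-0.17 ± 0.09, adjusted p = 0.14 in edgeR). With upper-quartile scaling Lbr was called lower (-0.30).

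Among the other members of this group Fdft1, the squalene synthase, differed between ranges by 0.02 ± 0.10 on the log2 scale, and Msmo1, the sterol methyl oxidase, by -0.06 ± 0.12. Cyp51, the lanosterol demethylase, had a value of 0.22 ± 0.16, with EphA2 null 2 at 577 CPM and the other 5 libraries between 370 and 438 CPM. Hsd17b7, the ketoreductase, had 0.29 ± 0.15, and Sc5d, the desaturase, 0.07 ± 0.10. Hsd17b7 was called only in the fit without wild type 3 (0.60). Tm7sf2, a sterol reductase like Lbr, was measured at 24.9, 22.3 and 26.4 CPM in wild type and at 18.4, 23.9 and 23.2 CPM under the null label, a log2 fold change between genotypes of -0.17 ± 0.16. Sqle, which had the next smallest p between genotypes in this group, differed by 0.17 ± 0.22. The genotypes overlapped in both. The Tm7sf2 span overlaps Vps51 on the same strand. Of the 26 genes, 14 overlap another annotated gene, among them Fdft1 with Ctsb, Cyp51 with Akap9, Ggps1 with Arid4b and Srebf1 with Rai1 on opposite strands, and the strand setting of the counts is not given in the sources used here.

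**Figure D4:**
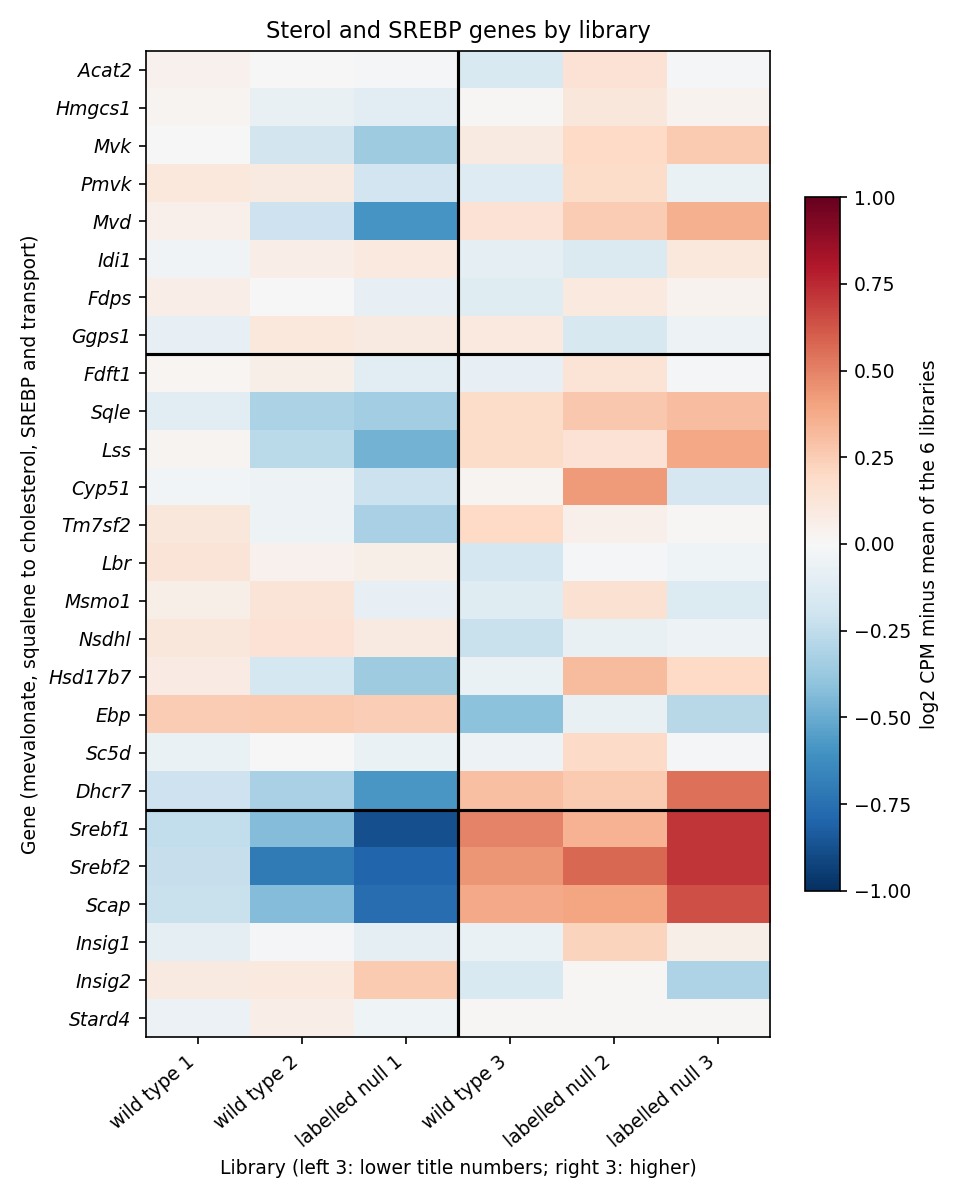
Log2 CPM of each of the 26 genes in each library minus the mean of the 6 libraries, in the order of the pathway, with libraries of lower title numbers left of the line. Srebf1, Srebf2, Scap and Dhcr7 turn from blue to red across the line, Ebp and Insig2 from red to blue or white, and EphA2 null 1 is the lowest library for 15 of the 26 genes (25.8% of all tested genes).

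The difference between ranges went with the base composition of the transcripts across the whole table. Over the 12841 tested genes with an annotated transcript, Spearman's rho between the log2 fold change and the GC content of the longest transcript was 0.48, and over the 26 sterol genes 0.55. These are descriptions across genes of the same 6 libraries, not across independent samples. The GC content was 57.9% for Srebf2, 58.4% for Srebf1 and 59.1% for Scap, beside a median of 49.6% over all tested genes. Hmgcs1 had 43.1% and Insig2 46.0%. Pmvk, at 56.95% GC and a log2 fold change of 0.02, and Ebp, at 50.9% GC and -0.54, lay off that trend.

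With the GC trend of each library removed, an alternative chosen after seeing the data, 7 members were called beside 35.5% of all genes: Sqle, Lss, Dhcr7, Srebf1, Srebf2 and Scap higher and Ebp lower. The log2 fold changes were then 0.71 for Srebf1, 0.77 for Srebf2 and 0.55 for Scap. With GC content and transcript length both removed, 5 were called beside 22.4% of all genes. Srebf1 was then at 0.44, Srebf2 at 0.43, Sqle at 0.38, Dhcr7 at 0.63 and Ebp at -0.39, while Scap no longer passed (0.28, adjusted p = 0.065 in edgeR). Lss, Mvk, Mvd, Insig2 and Nsdhl were not called under that setting either. Dhcr7 then had the largest difference of the members, so that Srebf1, Srebf2 and Scap no longer led. Without EphA2 null 1, 8.47% of all genes and 4 members were called, namely Srebf1 (0.83), Srebf2 (0.89), Scap (0.69) and Ebp (-0.67). Without wild type 2, 27.2% of all genes and 6 members were called, Sqle, Dhcr7, Srebf1, Srebf2 and Scap higher and Ebp lower, and without wild type 3, 28.4% of all genes, 9 members higher and 0 lower. Upper-quartile scaling moved the median of all genes to -0.13 and the share of higher calls among all called genes from 54.9% to 39.5%, and gave 7 higher and 4 lower members, beside 48.9% of all genes called.

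**Figure D5:**
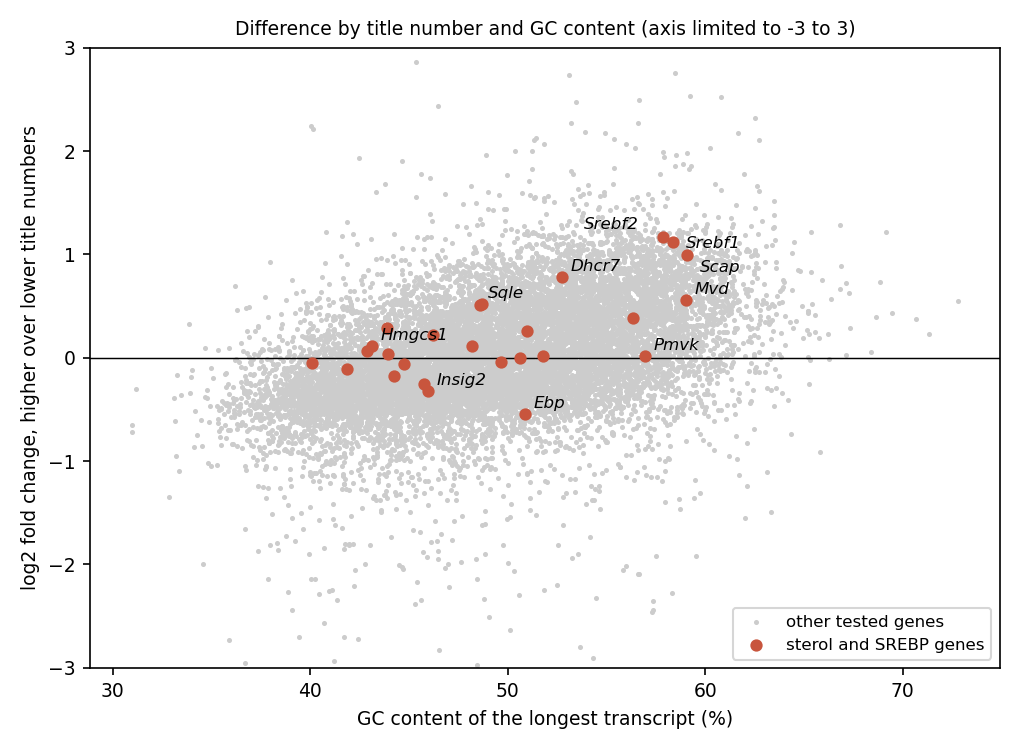
Log2 fold change between title number ranges (higher over lower) against the GC content of the longest transcript, with the sterol genes in red over the other tested genes in grey and the vertical axis limited to -3 to 3. Srebf1, Srebf2, Scap and Mvd sit at the right at 57.9% to 59.1% GC, and Ebp lies below 0 at 50.9%.

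The genotype difference was also compared between the ranges. In the test of this interaction 0 of the 26 genes were called, as were 0% of all tested genes, and 4 of the 26 had an unadjusted p under 0.05, where 4.71% of all tested genes did (605 of 12847). These were Mvd (0.69 ± 0.22 on the log2 scale), Hsd17b7 (0.64 ± 0.22), Scap (0.59 ± 0.24) and Srebf1 (0.59 ± 0.25). The interaction was above 0 in 24 of the 26 genes with a median of 0.27, beside 6837 of 12847 tested genes and a median of 0.02. Within the lower range, where 1 library labelled EphA2 null stands against 2 wild type libraries, 23 of 26 genes were lower under the null label (median log2 difference -0.14), beside 49.3% of all tested genes. Within the higher range, where the numbers are reversed, 23 of 26 were higher (median 0.14), beside 51.7% of all tested genes. EphA2 null 1 was below both wild type libraries of its range in 20 of the 26 genes, beside 35.9% of all tested genes. The lower-range difference thus rests on 1 library labelled EphA2 null, and the higher-range difference rests on 1 wild type library. The interaction rests on both.

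Other genes of sterol and lipid handling were taken from lists of textbook members, and 0 genes of any of these lists were called between genotypes. The differences between ranges given for these lists are those of the fit without removal of GC content or transcript length. Of 16 tested genes of fatty acid synthesis known as targets of SREBP-1, 10 rose with higher title numbers and 1 fell (68.8% called, beside 44.7% of all tested genes), with a median log2 fold change of 0.53. The activity of SREBP-1 was not tested. Fasn, the fatty acid synthase, was measured at 224, 164 and 430 CPM in wild type and at 122, 449 and 563 CPM under the null label (1.60 ± 0.22, adjusted p = 0.0022 in edgeR). The ranges did not overlap. Scd2, a desaturase of fatty acids, rose by 1.03 ± 0.17 on the log2 scale, the phosphatidate phosphatase gene Lpin1 by 0.77 ± 0.11 and the desaturase gene Fads1 by 0.77 ± 0.13. Scd1 and Scd2 had the smallest p between genotypes, at 0.33 ± 0.23 and 0.32 ± 0.39. The summed level of the list was 3053 to 3918 CPM in the lower and 5485 to 6234 CPM in the higher range.

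Of 19 genes of SREBP processing and of the degradation linked to INSIG, 7 rose and 4 fell between ranges (57.9% called, beside 44.7% of all tested genes), with a median of 0.16. Syvn1, a ubiquitin ligase of the endoplasmic reticulum, rose by 1.16 ± 0.13 on the log2 scale. Sec24a, a coat protein of the vesicles that carry SCAP, rose by 0.81 ± 0.12, and Nfya, a subunit of NF-Y, by 0.74 ± 0.11. Between genotypes Erlin2 had a log2 fold change of 0.11 ± 0.13, which did not pass the test.

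Of 9 tested genes of the LXR receptors and sterol efflux 3 rose and 1 fell between ranges (median 0.13), and this 44.4% called was near the 44.7% of all tested genes. The transporter genes Abcg1 and Abca2 rose by 0.65 ± 0.11 and 0.81 ± 0.16 on the log2 scale, while Apoe, the apolipoprotein gene, fell by 0.52 ± 0.11. Abcg4 rose by 3.03 ± 0.80 from low levels, at 0.482, 0.291 and 1.42 CPM in wild type and 0.138, 6.20 and 1.68 CPM under the null label. Between genotypes Abcg4 (1.89 ± 1.12) and Apoe (-0.37 ± 0.23) had the smallest p of this list.

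Of 16 tested genes of sterol esters and intracellular sterol transport 4 rose and 2 fell (median -0.09), or 37.5% called, beside 44.7% of all tested genes. Lrp1, a lipoprotein receptor, rose by 1.19 ± 0.13 on the log2 scale, the oxysterol-binding protein gene Osbp by 0.83 ± 0.11 and the lysosomal cholesterol exporter gene Npc1 by 0.67 ± 0.12, while Stard5 fell by 1.12 ± 0.19. Lipa (0.27 ± 0.15) and Gramd1a (-0.23 ± 0.15) had the smallest p between genotypes. Of 17 genes that use isoprenoids 2 rose and 6 fell (median -0.08), or 47.1% called, near the 44.7% of all tested genes. The Rab escort protein gene Chm fell by 0.60 ± 0.10, the protease gene Zmpste24 by 0.44 ± 0.08 and Fnta, a prenyltransferase subunit, by 0.45 ± 0.10, while the methyltransferase gene Icmt rose by 0.52 ± 0.10. Chml (-0.29 ± 0.21) and Dolk (0.18 ± 0.19) had the smallest p between genotypes.

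The mean profile of the 26 genes over the libraries, as z scores of log2 CPM, was 0.06, -0.03 and -0.23 in wild type and -0.70, 0.67 and 0.23 under the null label. EphA2 null 1 was lowest and EphA2 null 2 highest, so the mean profile followed neither genotype nor title number range alone. Members that rose and members that fell between ranges partly cancel in this mean, so it does not describe single genes. Among other genes that reached a mean of 10 CPM, those whose log2 CPM followed this profile most closely over the 6 libraries were Ptms (Pearson's r = 0.99), Cltc (0.97), Rab43 (0.97), Npepl1 (0.96), Rnf217 (0.96), Eif6 (0.96), Snrpb (0.96), Rab1b (0.95), Zfp706 (0.94) and Arf6 (0.94). Ptms was measured at 90.7, 84.3 and 85.1 CPM in wild type and 71.4, 108 and 93.7 CPM under the null label, and did not pass the test between ranges (log2 fold change 0.23, adjusted p = 0.19 in edgeR).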

How the data were processed

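Total RNA of mouse corneal epithelial sheets came from a miRNeasy kit, and sequencing used an Illumina HiSeq, per the labels. The deposited values are raw counts per gene, with the aligner, counter, strand setting, genome build and annotation all not given in the sources used here. Names, positions, lengths and GC content came from GENCODE M21 on GRCm38, which named 24942 of the 25006 genes on its reference chromosomes, and 6617 genes had 0 counts in all libraries. The table held 0 columns of other samples, and no pair of libraries agreed within sampling noise (lowest chi-square per degree of freedom 10.6).

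Counts were filtered with filterByExpr, scaled with TMM factors and tested with edgeR 4.0.16 (glmQLFit and glmQLFTest, R 4.3.3), in 1 fit over all tested genes, with Benjamini-Hochberg adjustment over all of them and a threshold of 0.05. CPM use effective library sizes. The SE follows from the log2 fold change and its F statistic, and intervals are 95%. The scripts were tested on simulated data. Alternatives were DESeq2 1.42.0, limma voom 3.58.1, other scaling and filters, each library left out, libraries that share a title number summed, and loess trends (span 0.5) of log2 CPM (prior count 2) on GC content and length as offsets.

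Library values are given for the genes of SREBP control and transport, members called in the main edgeR fits and the 2 with the smallest p between genotypes in each other group. Hmgcs1, Cyp51 and Fdps values beyond that rule were chosen after they were seen. Of each other list, up to 4 called genes or otherwise the 2 with the smallest p are named, except for some that are not reported here. The members, the lists and the title number comparison were chosen with earlier results of these data known.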

Additional observations from a re-analysis of the deposited data

How the results depend on the processing

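Of the counts and medians, 112 recomputed values stayed equal or near to the main value and 21 moved. Of the values of named genes 312 kept direction and side, 32 no longer passed and 24 turned sign. Between genotypes DESeq2 called 5 of the 18389 genes with any count (0.0272%) and summing libraries that share a title number called 0. The genotype differences of the sterol genes, 0 of which passed any test, turned sign with libraries summed in Srebf1 (-0.14), Scap (-0.048), Insig2 (0.077) and Sqle (-0.0061), with title number range as a term in Srebf1 (-0.24), Srebf2 (-0.067), Scap (-0.14), Insig2 (0.090) and Sqle (-0.014), with the GC offset in Insig2 (0.0022) and Stard4 (0.029), and with the GC and length offset in Insig2 (0.014) and Stard4 (0.011). Between ranges the GC and length offset gave 2870 genes, 4 members higher, 1 lower, a median of 0.22 and Nsdhl at 0.028, and the GC offset 1 member lower. Upper-quartile factors gave a median of -0.034, Insig1 at -0.014 and Stard4 at -0.091. Of the 10 genes most alike 5 remained with a floor of 1 CPM, and 11 members held CCAAT on the forward strand alone.

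Leaving out 1 library at a time, the genotype difference ran from -0.14 to 0.54 in Srebf1, from -0.024 to 0.57 in Scap, from -0.16 to 0.12 in Insig2 and from -0.046 to 0.020 in Stard4. The count of all genes called between ranges ran from 1103 (without EphA2 null 1) to 5803, with 3549 without wild type 2 and 3702 without wild type 3. Members called higher ran from 3 to 9 and lower from 0 to 2, their median from -0.0039 to 0.20 and the value of Insig1 from -0.015 to 0.21. Srebf1, Srebf2 and Scap were called between ranges whichever library was left out.

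No paired analysis was run, because the labels do not say which libraries of the genotypes belong together. Title number range was used as a term instead.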
